A study of Homo sapiens with 12 samples.

Results

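The mRNAs of 10 amino acid transporters of the plasma membrane, SLC7A5, SLC3A2, SLC7A11, SLC7A1, SLC1A4, SLC1A5, SLC38A1, SLC38A2, SLC43A1 and SLC6A9, were measured in a human pancreatic cancer cell line. They were chosen by name as a set of amino acid transporters, with earlier results of these data known, and 34 other plasma membrane amino acid transporters are described further below. The set made up 10 of the 26475 gene symbols in the deposited table. All 10 passed the filter on low counts that left 14582 genes to test. The cells were MIAPaCa2, a line from a pancreatic ductal adenocarcinoma that depends on glycolysis. Sodium oxamate, an analog of pyruvate, inhibits lactate dehydrogenase A (LDHA), the enzyme that turns pyruvate into lactate. There were 4 groups with 3 libraries each: parental cells given vehicle, parental cells given oxamate, oxamate-resistant cells given vehicle and oxamate-resistant cells given oxamate. GEO's labels call the vehicle groups untreated and the oxamate groups LDHA inhibitor. The resistant cells came from a single parental line kept in oxamate for weeks and were a polyclonal population that survived it, so a difference between the lines rests on 1 derived population. The RNA-seq methods and the labels do not give the dose or duration of oxamate in these cultures, though the methods give both for a chromatin accessibility assay on the same lines, and they do not say whether libraries of a group came from separate cultures, so the p-values measure the spread between these libraries, which may be technical.

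An amino acid crosses the plasma membrane through carriers that differ in what they take and what drives them. Exchangers such as SLC7A5 and SLC1A5 bring one amino acid in as another leaves, while sodium-coupled carriers such as SLC38A1 and SLC38A2 accumulate them from outside. SLC3A2, the CD98 heavy chain, carries no amino acid itself but is bound by a disulfide to light chains, among them SLC7A5 and SLC7A11, and brings them to the cell surface. Many of these genes are known targets of ATF4, a transcription factor whose translation rises when amino acids are short or the endoplasmic reticulum is stressed, and which binds with C/EBP proteins to elements of the form TGATGNAAN.

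The promoter stretches that hold such an element are shown because the members are commonly described as ATF4 targets. RefSeq windows of 300 bases, from 250 before to 50 after a transcript start (GRCh38.p14), were found for 9 of the 10 genes, with 16 windows in all, some genes having several starts. SLC7A11 was not among them. TGATGNAAN, read on both strands, was present in 5 of the 16 windows, 1 each for SLC1A4, SLC3A2, SLC38A1, SLC7A1 and SLC1A5, and in 3.61% of the 35116 promoter windows of the same length. Each line gives the gene, the position and the gene's strand 5′ to 3′, with the match in capitals:
SLC1A4, chr2:64989365-64989425, plus strand: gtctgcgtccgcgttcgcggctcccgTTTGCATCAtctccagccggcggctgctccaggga
SLC3A2, chr11:62881725-62881748, plus strand: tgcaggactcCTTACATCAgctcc
SLC38A1, chr12:46266487-46266546, minus strand: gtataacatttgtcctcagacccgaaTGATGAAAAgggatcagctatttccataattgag
SLC7A1, chr13:29595659-29595707, minus strand: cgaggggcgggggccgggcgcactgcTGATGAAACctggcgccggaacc
SLC1A5, chr19:46784877-46784937, minus strand: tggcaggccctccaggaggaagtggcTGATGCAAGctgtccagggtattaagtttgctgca
In SLC1A4 and SLC3A2 the match lies on the other strand, so the capitals read as its reverse complement. Counted from the RefSeq start of its own window, the match began 8 bases before in SLC1A4, 4 before in SLC38A1 and 97 before in SLC1A5. Those of SLC7A1 and SLC3A2 began 8 and 37 bases after it. The windows of SLC1A4, SLC3A2, SLC38A1 and SLC1A5 lie inside the span of the gene in GENCODE 29, so these are not its outermost starts. The SLC1A5 match lies in chr19:46784765-46785064, and the window of that gene further upstream, chr19:46787244-46787543, held none. The end of the SLC38A1 window was not found in a GENCODE 29 transcript of the gene. A match is a run of letters, and none of these libraries measured binding.

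The SLC7A5 window held no TGATGNAAN on either strand. It held CACGTG, the E-box bound by MYC and related factors, which was present in 3 of the 16 windows (SLC7A5, SLC43A1 and SLC1A5) and in 7.26% of all windows. It also held TGACNNNGC, the core of the antioxidant response element bound by NRF2, present in 4 of the 16 windows (SLC7A5, SLC3A2, SLC7A1 and SLC1A5) and in 13.3% of all windows, with no overlap between these matches and the first motif. The stretch from 250 bases before the start of SLC7A5 is printed because this gene had the strongest oxamate response by p-value among the 10 in resistant cells, with both matches in capitals:
SLC7A5, chr16:87869478-87869757, minus strand: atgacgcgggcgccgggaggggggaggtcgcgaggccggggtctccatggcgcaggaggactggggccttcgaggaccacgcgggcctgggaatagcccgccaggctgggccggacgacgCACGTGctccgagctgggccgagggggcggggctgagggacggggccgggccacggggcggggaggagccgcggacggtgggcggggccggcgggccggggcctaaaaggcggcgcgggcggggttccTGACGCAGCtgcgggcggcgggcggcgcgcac

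Libraries held between 46698729 and 114222169 expected counts, the most in vehicle-treated parental cells (66383814 to 114222169) and the fewest in oxamate-treated resistant cells (46698729 to 53384114). Levels are CPM, counts relative to library size, after scaling by the trimmed mean of M-values (TMM), and 3 counts, taken as the detection floor, corresponded to 0.028 to 0.058 CPM. The cells had the keratins and vimentin known of this line, with KRT8 at 676 to 1552 CPM and VIM at 6005 to 9899 CPM as group means, while EPCAM, CDH1 and the leukocyte marker PTPRC were at or near 0 in every library. VIM and all 3 keratins tested, KRT8, KRT18 and KRT19, were over 1.5-fold lower in resistant cells after either treatment. Of other cell types, the endothelial CDH5 was under 1 CPM and the fibroblast DCN at or near 0, while COL1A2 was 703 to 941 CPM beside COL1A1 at 1.00 to 1.89 CPM. MALAT1, a nuclear-retained RNA, was taken as a sign of how much nuclear RNA a library holds, which was not itself measured. It was 183 to 199 CPM in vehicle-treated parental libraries and 577 to 742 CPM in oxamate-treated resistant libraries. Replicate 3 of oxamate-treated parental cells (596 CPM, against 281 and 289) and replicate 3 of vehicle-treated resistant cells (597 CPM, against 244 and 273) stood apart from their groups in MALAT1. Leaving out both of these libraries ended no call among the 10 transporters, and it added a call for the difference of responses of SLC38A2 (0.12, adjusted p = 0.0272).

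Fold changes, their standard errors (SE) and every adjusted p come from edgeR's quasi-likelihood test on all 14582 genes with Benjamini-Hochberg adjustment, and a gene was called where the adjusted p was under 0.05. The study's own threshold, an unadjusted p under 0.05 with a change over 1.5-fold, is given beside it. It was applied here to the edgeR results, whereas the study used DESeq2, so the numbers passing are not the study's own calls.

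Oxamate lowered most of the transporters in both lines. In parental cells 7 of 10 fell, 1 rose (SLC3A2) and 2 were not called (SLC1A4 and SLC43A1), with a median log2 fold change of -0.20 against 0.0030 over all tested genes. Across all tested genes 30.4% were called lower and 28.3% higher in that comparison. In resistant cells 9 of 10 fell and none rose, with SLC7A11 not called, and the median was -0.31, whereas 12.5% of all genes were called lower and 9.01% higher. By the study's threshold 1 transporter passed in each line, SLC7A11 in parental cells and SLC7A5 in resistant cells, where 9.88% and 2.5% of all genes did. Comparing the lines after vehicle, 7 of 10 were higher in resistant cells, 2 were lower (SLC3A2 and SLC38A2) and SLC6A9 was not called, and the background was 38.4% called higher and 37.3% lower. After oxamate 4 were higher (SLC7A11, SLC38A1, SLC7A5 and SLC43A1), 4 were lower (SLC3A2, SLC38A2, SLC1A5 and SLC6A9) and 2 were not called, where 40.6% of all genes were called higher and 39.7% lower. The study's threshold passed 3 transporters after vehicle and 3 after oxamate, against 23.4% and 34.3% of all genes. Scaling by library totals alone left the split of calls within each line almost as it was (1 higher and 8 lower in parental, none higher and 9 lower in resistant cells), but between the lines it gave 8 higher and 1 lower after vehicle and 8 higher and 1 lower after oxamate. That scaling also moved the median of all genes up by 0.22 after vehicle and 0.32 after oxamate. The shares of all genes above are from TMM scaling and were not counted under library totals. The 4 comparisons share groups with each other and are not independent counts.

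**Figure D1:**
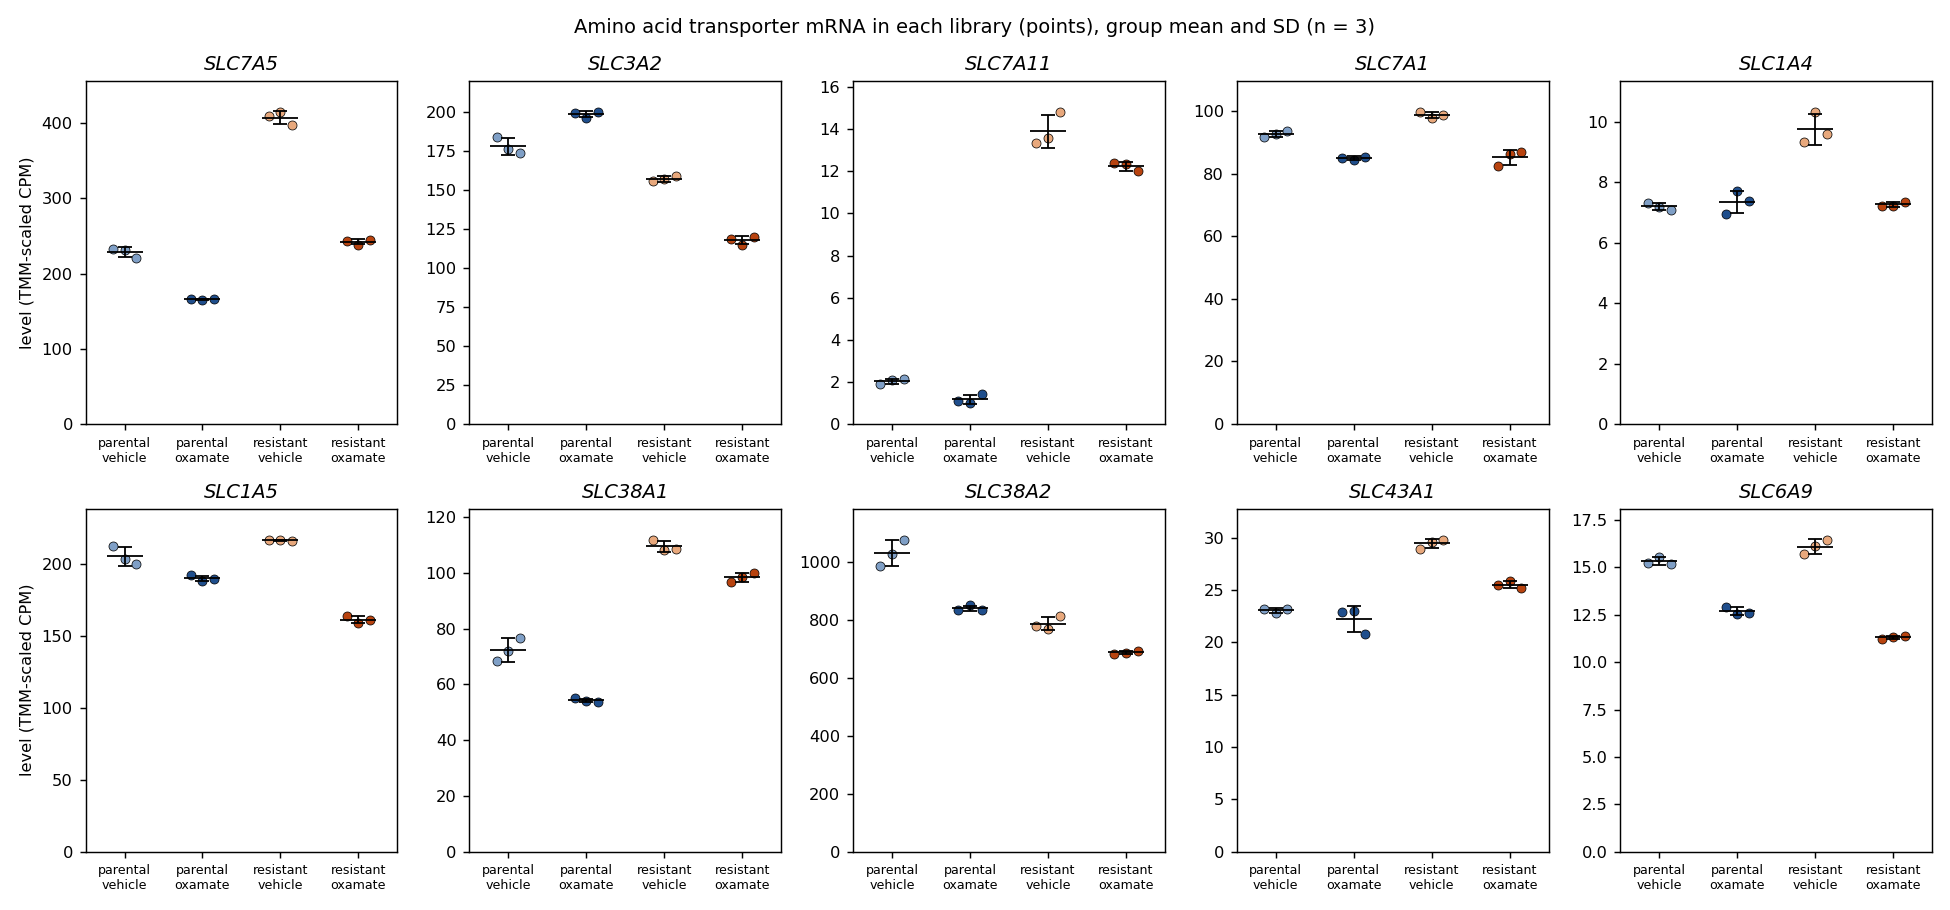
Level of each transporter in TMM-scaled CPM (vertical axis, from 0) in the 12 libraries, with 1 panel per gene, points for libraries and bars for the group mean and SD (n = 3). SLC7A5 was highest in vehicle-treated resistant cells (398 to 415 CPM), SLC7A11 separated the lines with every resistant library at 12 CPM or above and every parental library at 2.12 CPM or under, and SLC3A2 was lowest in oxamate-treated resistant cells (115 to 120 CPM).

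SLC3A2 (chr11:62856102-62888875, plus strand in GENCODE 29 on GRCh38), the heavy chain, was the one transporter whose responses were called in opposite directions in the lines. Vehicle-treated parental libraries held 184.3, 176.2 and 173.5 CPM, and the oxamate-treated ones held 199.2, 196.5 and 199.9 CPM. All 3 treated libraries lay above all 3 controls, a rise of 1.12-fold (log2 0.16, SE 0.0266, adjusted p = 0.000106). In resistant cells the levels were 155.5, 157.0 and 159.0 CPM after vehicle and 118.9, 114.8 and 120.2 CPM after oxamate. Here each treated library lay below every control, a fall of 1.33-fold (log2 -0.41, SE 0.0274, adjusted p = 7.37e-08). The resistant response minus the parental response was -0.57 on the log2 scale (SE 0.0382, adjusted p = 2.23e-08). Resistant cells therefore held less SLC3A2 than parental cells after vehicle (1.13-fold lower) and still less after oxamate (1.68-fold lower, adjusted p = 4.79e-13). The difference after vehicle turned positive (log2 0.039) when libraries were scaled by their totals alone, a scaling that raised the median of all genes by 0.22 in that comparison.

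SLC7A5 (chr16:87830023-87869488, minus strand), the LAT1 light chain that exchanges intracellular glutamine for leucine and other large neutral amino acids, fell in both lines. Parental libraries held 232.5, 232.0 and 220.8 CPM after vehicle and 166.0, 165.4 and 166.3 CPM after oxamate. The fall was 1.38-fold (log2 -0.46, SE 0.0259, adjusted p = 9.19e-10). Resistant libraries held 409.3, 414.6 and 398.1 CPM after vehicle and 243.6, 238.7 and 244.6 CPM after oxamate. That fall was 1.68-fold (log2 -0.75, SE 0.0258, adjusted p = 5.82e-11) and larger than the parental one by 0.29 on the log2 scale in size (difference -0.29, SE 0.0365, adjusted p = 1.25e-05). Neither line's groups overlapped. Resistant cells held 1.78-fold more SLC7A5 after vehicle (adjusted p = 1.56e-13) and 1.46-fold more after oxamate (adjusted p = 1.23e-11). With oxamate they came down to 242.3 ± 3.19 CPM (SD, n = 3), still above the 228.4 ± 6.60 CPM of parental cells that never had it. In replicate 3 of vehicle-treated resistant cells, whose MALAT1 lay within the range of the oxamate-treated libraries, SLC7A5 was 398.1 CPM, the lowest of the 3 vehicle libraries, and the part of nuclear RNA in the oxamate response was not tested.

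Pseudogenes SLC7A5P1 and SLC7A5P2 may share reads with SLC7A5, and their values were small beside it. SLC7A5P1 was between 2.12 and 2.94 CPM as group means and was not called in any comparison. SLC7A5P2 was 8.40 CPM in vehicle-treated and 12.4 CPM in oxamate-treated parental cells and 5.77 and 5.62 CPM in resistant cells, and it rose with oxamate in parental cells (log2 0.56, adjusted p = 2.99e-05), where SLC7A5 fell.

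SLC7A11 (chr4:138164097-138242349, minus strand), the xCT light chain, takes up cystine in exchange for glutamate and so feeds glutathione synthesis. It was the member that separated the lines most. Parental libraries held 1.89, 2.07 and 2.12 CPM after vehicle, from 132 to 204 expected counts, and 1.11, 1.01 and 1.42 CPM after oxamate, from 53 to 98 expected counts. In resistant libraries it was 13.35, 13.57 and 14.81 CPM after vehicle and 12.38, 12.35 and 12.00 CPM after oxamate. No parental library came near a resistant one. The resistant cells exceeded the parental cells 6.90-fold after vehicle (log2 2.79, SE 0.0792, adjusted p = 6.32e-14) and 10.2-fold after oxamate (log2 3.35, SE 0.0931, adjusted p = 2.19e-14).

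Oxamate lowered SLC7A11 by 1.68-fold in parental cells (log2 -0.75, SE 0.111, adjusted p = 2.77e-05). In resistant cells the log2 change was -0.18 (95% interval from -0.33 to -0.040), with all treated libraries below all controls, and it missed the threshold (adjusted p = 0.064). It passed it with limma-voom (adjusted p = 0.0246) and in a fit of the 2 resistant groups alone (adjusted p = 0.024). The responses differed by 0.57 (SE 0.131, adjusted p = 0.00223). SLC7A11-AS1, a transcript from the other strand of the locus, was 0 in parental libraries and at most 0.028 CPM as a group mean in resistant cells, under the floor of 3 counts.

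The ratio of SLC7A5 to SLC3A2 counts within a library does not depend on how libraries are scaled. It was 1.26, 1.32 and 1.27 in vehicle-treated parental cells and 0.833, 0.842 and 0.832 after oxamate. Raw counts of the light chain thus went from above the heavy chain to below it, but counts also depend on transcript length. Per kilobase of the longest transcript SLC7A5 was below SLC3A2 in both parental groups. The values were 50.3 against 80.1 after vehicle and 36.6 against 89.4 after oxamate. In resistant cells it was 2.63, 2.64 and 2.50 after vehicle and 2.05, 2.08 and 2.04 after oxamate. None of the 4 groups overlapped: the ratio was 2.02-fold higher in resistant cells after vehicle and 2.46-fold higher after oxamate, and oxamate lowered it 1.54-fold in parental and 1.26-fold in resistant cells. The exact two-sided permutation p was 0.1 in each of these comparisons, the smallest that this test allows for 3 against 3.

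For SLC7A11 to SLC3A2 the ratio was 0.0102, 0.0117 and 0.0122 in vehicle-treated parental cells and 0.00556, 0.00514 and 0.0071 after oxamate. It was 0.0858, 0.0865 and 0.0931 in vehicle-treated resistant cells and 0.104, 0.108 and 0.0998 after oxamate. Oxamate thus moved it down 1.93-fold in parental cells and up 1.17-fold in resistant cells, with no overlap in either line (exact two-sided permutation p = 0.1, the smallest possible). In the oxamate-treated groups the lines stood 17.7-fold apart in it.

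**Figure D2:**
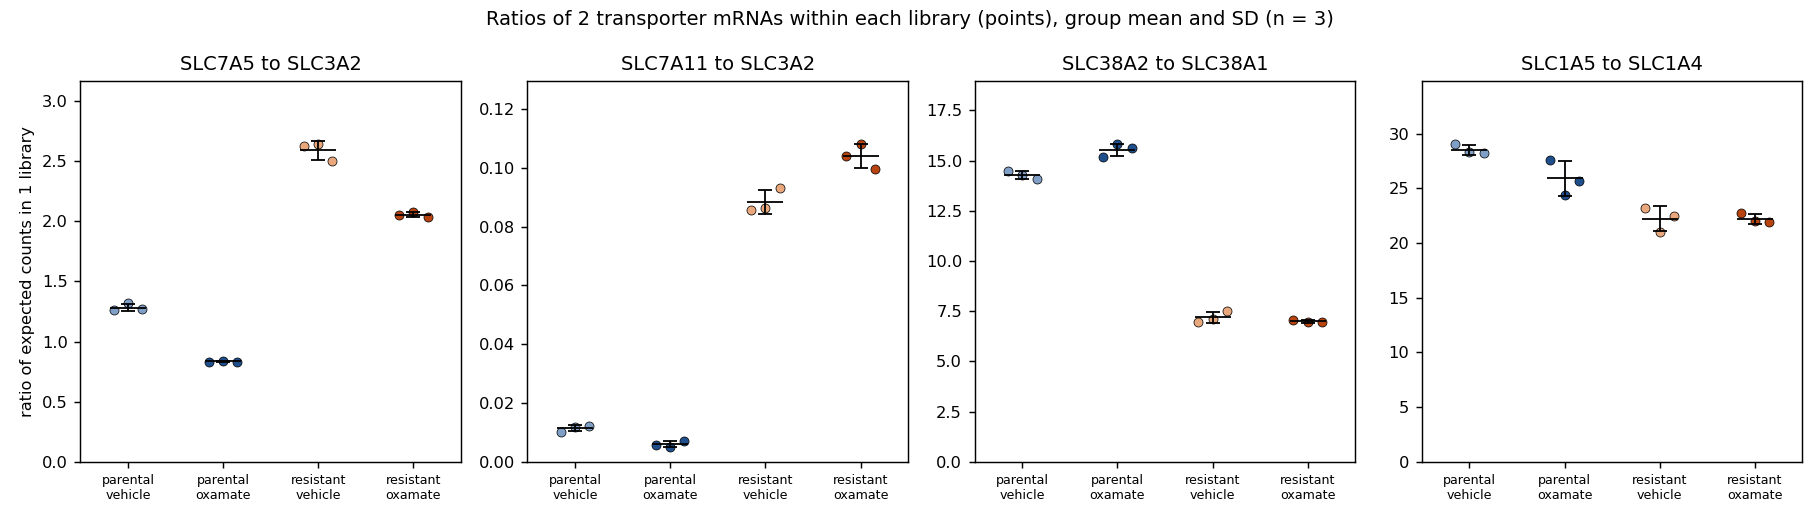
Ratio of the expected counts of a pair of transporters within a library (vertical axis, linear, from 0), for 4 pairs, with points for libraries and bars for the group mean and SD (n = 3). The SLC7A5 to SLC3A2 ratio was 2.50 to 2.64 in vehicle-treated resistant cells and 0.832 to 0.842 in oxamate-treated parental cells, and the SLC38A2 to SLC38A1 ratio was at most 7.51 in resistant cells and at least 14.1 in parental cells.

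Per kilobase of the longest GENCODE 29 transcript that is paired with a RefSeq mRNA, SLC7A5 supplied most of the light-chain mRNA. Summed over the 6 light chains that bind SLC3A2 (SLC7A5, SLC7A6, SLC7A7, SLC7A8, SLC7A10 and SLC7A11), SLC7A5 made up 89.0% ± 0.694 (SD, n = 3) in vehicle-treated and 87.4% ± 0.644 in oxamate-treated parental cells, and 91.7% ± 0.503 and 86.9% ± 0.123 in resistant cells. SLC7A6, a light chain for cationic and neutral amino acids, made up between 6.06% and 10.7%. SLC7A11 made up 0.372% and 0.292% in parental and 1.47% and 2.07% in resistant cells. Light-chain level per kilobase over that of SLC3A2 was 0.706 ± 0.016 and 0.468 ± 0.0065 in parental cells and 1.38 ± 0.035 and 1.16 ± 0.011 in resistant cells (SD, n = 3, vehicle then oxamate). The order of the groups in this ratio was the same as for SLC7A5 to SLC3A2 alone.

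SLC7A1 (chr13:29509410-29595688, minus strand), the CAT1 carrier of arginine and lysine, moved little. Its levels were 91.92, 92.75 and 93.69 CPM in vehicle-treated and 85.17, 84.45 and 85.51 CPM in oxamate-treated parental cells, a fall of 1.09-fold (log2 -0.13, SE 0.0249, adjusted p = 0.00045). In resistant cells 99.71, 97.76 and 98.92 CPM went to 82.49, 86.36 and 86.92 CPM, a fall of 1.16-fold (log2 -0.21, SE 0.0253, adjusted p = 4.44e-05). The groups did not overlap within either line. After vehicle the resistant cells held 1.06-fold more (adjusted p = 0.00355), and after oxamate the groups overlapped (log2 0.0037, 95% interval from -0.050 to 0.058). The latter was called with upper-quartile factors (0.090, adjusted p = 0.00417) and under scaling by totals alone (0.33, adjusted p = 2.93e-08). The difference of the responses was -0.087 and was not called (adjusted p = 0.0583), though it was without replicate 3 of oxamate-treated resistant cells (-0.10, adjusted p = 0.0434).

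SLC1A5 (chr19:46774883-46788594, minus strand) and SLC1A4 (chr2:64988477-65023865, plus strand) encode the sodium-dependent exchangers ASCT2, a main route for glutamine, and ASCT1, for serine, alanine and cysteine. SLC1A5 was 212.3, 203.3 and 199.8 CPM in vehicle-treated and 192.0, 188.3 and 189.4 CPM in oxamate-treated parental cells. That fall was 1.08-fold (log2 -0.11, SE 0.0252, adjusted p = 0.00132) with no overlap. In resistant cells it went from 216.6, 216.6 and 215.6 CPM to 163.5, 158.9 and 161.3 CPM, a fall of 1.34-fold (log2 -0.42, SE 0.0255, adjusted p = 2.69e-08). The response of resistant cells was stronger by test (difference -0.31, SE 0.0359, adjusted p = 4.59e-06). After vehicle the lines differed by 1.05-fold (adjusted p = 0.0123), a call lost without replicate 3 of vehicle-treated parental cells (log2 0.056, adjusted p = 0.0621), and after oxamate SLC1A5 was 1.18-fold lower in resistant cells (adjusted p = 3.04e-07). Under scaling by library totals alone the last difference was called in the other direction (log2 0.088, adjusted p = 0.00339).

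SLC1A4 was much lower, at 7.32, 7.17 and 7.09 CPM in vehicle-treated and 6.96, 7.71 and 7.36 CPM in oxamate-treated parental cells, which overlapped (log2 0.028, 95% interval from -0.091 to 0.15, adjusted p = 0.697). Vehicle-treated resistant cells stood above the other 3 groups with 9.32, 10.31 and 9.60 CPM, and oxamate brought them to 7.22, 7.22 and 7.35 CPM. The rise in the resistant line after vehicle was 1.35-fold (log2 0.44, SE 0.0540, adjusted p = 2.04e-06) and the fall with oxamate 1.34-fold (log2 -0.42, SE 0.0565, adjusted p = 0.000121). After oxamate the lines overlapped (log2 -0.015, 95% interval from -0.14 to 0.11), and under scaling by totals alone SLC1A4 was higher there (0.31, adjusted p = 0.000135). The difference of the responses was -0.45 (SE 0.0793, adjusted p = 0.000251). SLC1A5 counts were 28.2 to 29 times those of SLC1A4 in vehicle-treated parental cells, 24.4 to 27.6 times after oxamate, and 21.0 to 23.2 and 21.9 to 22.7 times in resistant cells, where the ratio did not move with oxamate beyond its spread (exact two-sided permutation p = 1).

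SLC38A2 and SLC38A1, the sodium-coupled carriers SNAT2 and SNAT1 for glutamine, alanine and other small neutral amino acids, are neighbors on chromosome 12 (chr12:46358189-46372867 and chr12:46183063-46270017, both minus strand). SLC38A2 was the most abundant of the 10 in every library. It was 987.4, 1030 and 1078 CPM in vehicle-treated and 836.5, 852.1 and 837.1 CPM in oxamate-treated parental cells, a fall of 1.23-fold (log2 -0.29, SE 0.0299, adjusted p = 5.49e-07). Resistant cells went from 780.8, 770.8 and 814.2 CPM to 684.5, 687.9 and 694.6 CPM, a fall of 1.15-fold (log2 -0.19, SE 0.0300, adjusted p = 0.000424). None of the 4 groups overlapped, and the difference of the responses was 0.099 and not called (adjusted p = 0.0709). It was called with DESeq2 (adjusted p = 0.0486), under scaling by totals alone (0.20, adjusted p = 0.00202) and without replicate 1 of vehicle-treated parental cells or replicate 3 of vehicle-treated resistant cells (adjusted p = 0.0122 and 0.0275). Resistant cells held 1.31-fold less after vehicle (adjusted p = 8.02e-09) and 1.22-fold less after oxamate (adjusted p = 1.85e-07), the second of which turned positive (log2 0.036) under scaling by totals alone.

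SLC38A1 went the other way between the lines. It was 68.29, 72.14 and 76.67 CPM in vehicle-treated and 54.97, 53.99 and 53.77 CPM in oxamate-treated parental cells, a fall of 1.33-fold (log2 -0.41, SE 0.0355, adjusted p = 8.76e-08). In resistant cells it was 111.8, 108.1 and 108.5 CPM and fell to 96.74, 98.67 and 99.995 CPM, or 1.11-fold (log2 -0.15, SE 0.0344, adjusted p = 0.00617). The resistant response was the smaller of these (difference 0.26, SE 0.0495, adjusted p = 0.00048). Resistant cells held 1.51-fold more after vehicle (adjusted p = 2.25e-10) and 1.82-fold more after oxamate (adjusted p = 2.34e-12), and no resistant library overlapped a parental one.

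The ratio of SLC38A2 to SLC38A1 counts, which needs no scaling between libraries, was 14.5, 14.3 and 14.1 in vehicle-treated and 15.2, 15.8 and 15.6 in oxamate-treated parental cells. It was 6.98, 7.13 and 7.51 in vehicle-treated and 7.08, 6.97 and 6.95 in oxamate-treated resistant cells. The ratio was 1.98-fold lower in the resistant line after vehicle and 2.22-fold lower after oxamate (exact two-sided permutation p = 0.1, the smallest possible). Within the resistant line it changed by -0.042 on the log2 scale with oxamate, about the size of its pooled SD of 0.039, and the groups overlapped (exact two-sided permutation p = 0.2).

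SLC43A1 (chr11:57484534-57515786, minus strand), the LAT3 uniporter of branched-chain amino acids and phenylalanine, was 23.14, 22.77 and 23.22 CPM in vehicle-treated and 22.87, 22.96 and 20.76 CPM in oxamate-treated parental cells, which overlapped (log2 -0.056, 95% interval from -0.14 to 0.026, adjusted p = 0.227). Under scaling by totals alone this parental change was called (-0.13, adjusted p = 0.00423). Resistant cells held 28.95, 29.61 and 29.78 CPM and, after oxamate, 25.49, 25.86 and 25.17 CPM. They exceeded parental cells by 1.28-fold after vehicle (adjusted p = 3.62e-07) and 1.15-fold after oxamate (adjusted p = 2e-04), and oxamate lowered them 1.16-fold (log2 -0.21, SE 0.0388, adjusted p = 0.00178). The difference of the responses was -0.15 (SE 0.0547, adjusted p = 0.0344). That call was lost when any of 7 of the 12 libraries was left out, in turn replicate 2 of vehicle-treated parental cells, replicates 1 and 2 of oxamate-treated parental cells, replicates 2 and 3 of vehicle-treated resistant cells and replicates 1 and 3 of oxamate-treated resistant cells (adjusted p from 0.0594 to 0.0857), and it was also lost with DESeq2 (adjusted p = 0.0778), with no filter on low counts (adjusted p = 0.0517) and under scaling by totals alone (-0.046, adjusted p = 0.474).

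SLC6A9 (chr1:43991500-44031467, minus strand), the glycine transporter GlyT1, was 15.25, 15.57 and 15.20 CPM in vehicle-treated and 12.91, 12.53 and 12.62 CPM in oxamate-treated parental cells, a fall of 1.21-fold (log2 -0.27, SE 0.0377, adjusted p = 1.31e-05). Resistant cells held 15.69, 16.14 and 16.45 CPM after vehicle and 11.22, 11.34 and 11.38 CPM after oxamate, a fall of 1.42-fold (log2 -0.51, SE 0.0394, adjusted p = 4.41e-07). The groups did not overlap within either line. After vehicle the line difference was 0.069 on the log2 scale and not called (95% interval from -0.0095 to 0.15). Every resistant library lay above every parental one there. It was called with upper-quartile factors (0.145, adjusted p = 0.00204), by totals alone (0.29, adjusted p = 5.15e-06) and with a mean count of at least 25 (0.088, adjusted p = 0.0357). After oxamate the resistant cells held 1.12-fold less (adjusted p = 0.0014). That value lost its call with upper-quartile factors (adjusted p = 0.0996). Under scaling by totals alone it was called in the other direction (log2 0.16, adjusted p = 0.00211). The responses differed by -0.23 (SE 0.0546, adjusted p = 0.00245), a call that was lost under scaling by totals alone (-0.13, adjusted p = 0.0679).

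**Figure D3:**
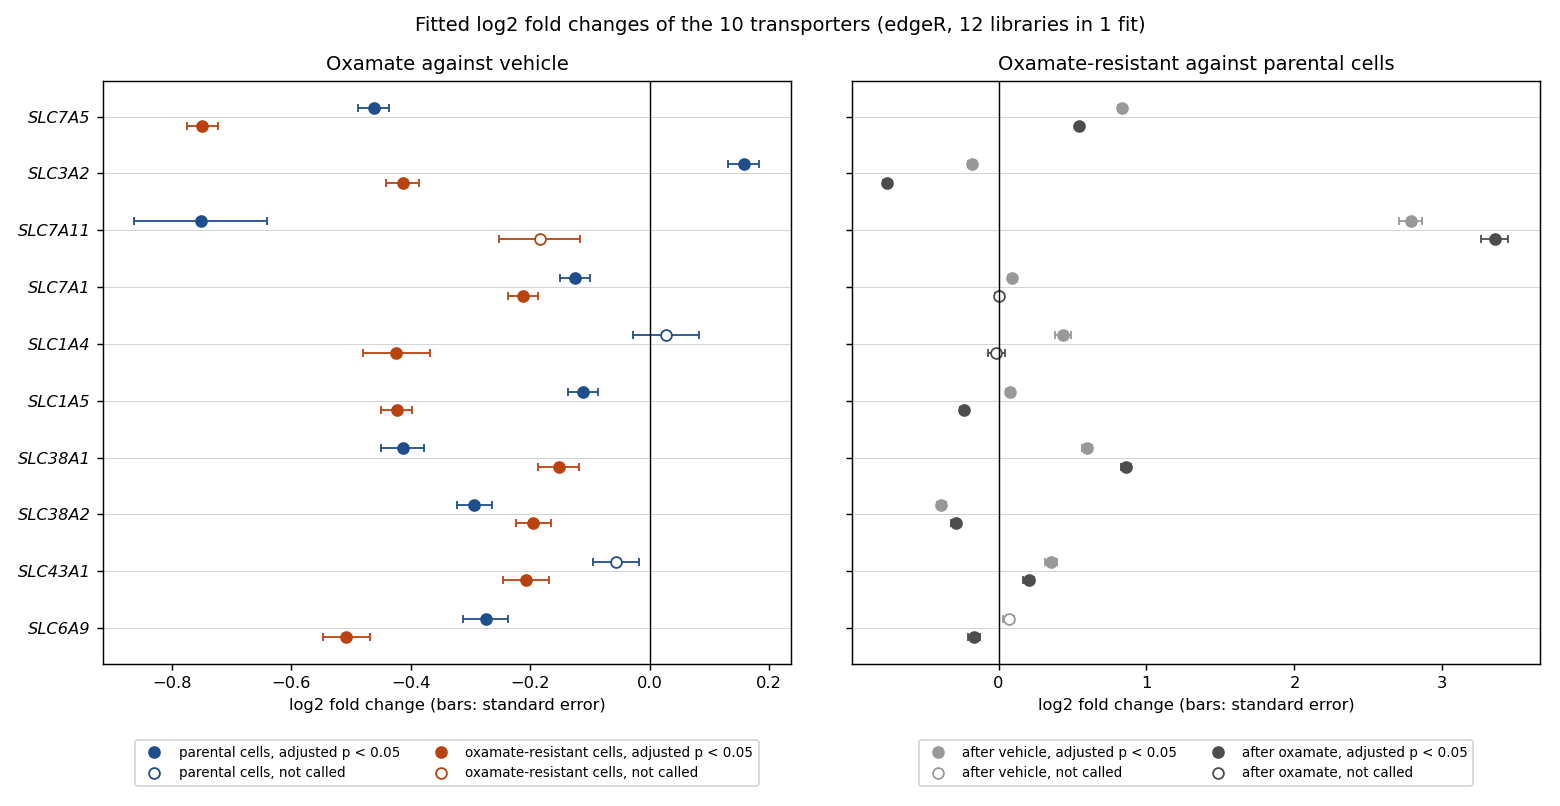
Fitted log2 fold changes of the 10 transporters (horizontal axis) with standard errors as bars, for oxamate against vehicle in each line (left) and resistant against parental cells after each treatment (right), with filled circles where the adjusted p was under 0.05 and open circles otherwise. On the left all called values lie below 0 except SLC3A2 in parental cells (0.16), and on the right SLC7A11 lies far from the rest at 2.79 and 3.35.

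The responses of the lines were compared gene by gene in the same fit. For 6 of the 10 transporters the log2 response was more negative in resistant than in parental cells (SLC3A2, SLC1A4, SLC1A5, SLC7A5, SLC6A9 and SLC43A1). For 2 it was less negative (SLC7A11 and SLC38A1), and 2 were not called. Over all genes the difference was called below 0 for 21.4% and above 0 for 22.7%. None of these differences passed 1.5-fold.

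Added together, the 10 transporters came in parental cells to 1856 ± 33.2 CPM after vehicle and 1579 ± 5.50 CPM after oxamate, and in resistant cells to 1847 ± 16.1 and 1451 ± 11.4 CPM (SD, n = 3 in each). Oxamate lowered this sum 1.18-fold in parental and 1.27-fold in resistant cells, with no overlap (exact two-sided permutation p = 0.1, the smallest possible). After vehicle the sums of the lines overlapped (exact two-sided permutation p = 0.7), but their makeup did not: SLC38A2 made up 55.6% in parental and 42.7% in resistant cells, and SLC7A5 made up 12.3% and 22.1%. After oxamate SLC38A2 made up 53.3% and 47.5%, SLC7A5 10.5% and 16.7%, and SLC3A2 12.6% and 8.13%. Under scaling by library totals alone the sum was higher in resistant cells in both treatments (log2 0.21 after vehicle and 0.20 after oxamate).

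Levels of different genes were compared per kilobase, with the longest transcript and with the mean length of a gene's transcripts, since lengths of SLC38A2, SLC38A1 and SLC1A4 transcripts vary widely. By both, SLC38A2 was the highest in every group, at 211 CPM per kilobase in vehicle-treated parental cells by the longest transcript. SLC3A2, SLC1A5 and SLC7A5 held the next ranks in every group, at 80.1, 71.2 and 50.3 in those cells. Their order among themselves changed with the group and with the length used, and by either length SLC7A5 went from the lowest of these in vehicle-treated parental cells to above SLC3A2 in vehicle-treated resistant cells (89.8 against 70.7 by the longest transcript). By the longest transcript SLC7A5 and SLC3A2 overlapped in oxamate-treated resistant cells (53.4 ± 0.702 and 53.1 ± 1.27, SD, n = 3). SLC38A1, SLC7A1 and SLC43A1 were in the middle, between 6.72 and 13.6 over the groups by the longest transcript, in an order that depended on the length used. SLC6A9, SLC1A4 and SLC7A11 were the lowest in that order in every group, and SLC7A11 was 0.210 and 0.122 in parental and 1.44 and 1.27 in resistant cells.

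Of 34 other plasma membrane amino acid transporters 13 could be tested. In parental cells oxamate lowered 3 and raised 1, where 30.4% of all genes were called lower and 28.3% higher, and in resistant cells it lowered none (3 had an unadjusted p under 0.05) and raised 1, beside 12.5% and 9.01% of all genes. DESeq2 and limma-voom gave the same counts in resistant cells. The median log2 change of the 13 in resistant cells was 0.064, against -0.31 for the 10 described above. Among the 13, SLC7A8, SLC7A9, SLC1A3 and SLC38A5 held at most 18 expected counts in any resistant library. The SE of their change in resistant cells was 0.367 to 0.691, so low counts limited the calls for these genes. SLC7A6 and SLC38A6, at 38.8 and 18.8 CPM in oxamate-treated resistant cells, were not called there either (log2 0.052 and -0.11, SE 0.0497 and 0.0414). The 10 had also been chosen with earlier results of these data known. Between the lines after vehicle 7 of the 13 were higher and 4 lower in resistant cells, and after oxamate 4 were higher and 2 lower, beside 38.4% and 37.3%, and 40.6% and 39.7%, of all genes. SLC43A2, the LAT4 carrier related to SLC43A1, was 11.5 and 8.03 CPM in parental cells and 19.1 and 17.4 CPM in resistant cells (vehicle and oxamate), a fall of 1.44-fold in parental cells (adjusted p = 6.76e-07) and 2.17-fold more in the resistant line after oxamate (adjusted p = 1.64e-11). SLC7A2, a cationic carrier like SLC7A1, was 1.52 and 0.948 CPM in parental and 2.87 and 2.76 CPM in resistant cells, and it was 1.90-fold higher in the resistant line after vehicle (adjusted p = 2.82e-06). SLC38A4, of the family of SLC38A1, was lower in the resistant line after vehicle and after oxamate (log2 -0.59 in both), as was the aromatic amino acid carrier SLC16A10 after vehicle (log2 -0.79, adjusted p = 0.000348). SLC7A8, a light chain for neutral amino acids, had 9 to 22 expected counts in each parental library and 1 to 6 in each resistant one, or 0.231 and 0.242 CPM against 0.052 and 0.066 CPM as group means (adjusted p = 0.00138 after vehicle and 0.00379 after oxamate). SLC7A9 lay near the floor of 3 counts in parental cells (0.049 and 0.048 CPM) and at 0.165 and 0.185 CPM in resistant cells (adjusted p = 0.00995 and 0.00831), and SLC6A6, a taurine carrier, was the 1 gene raised by oxamate in resistant cells (log2 0.16, adjusted p = 0.0323).

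Amino acid carriers of the lysosome membrane were tested for 8 of 9 genes, of which oxamate lowered 5 and raised 1 in parental cells and passed for none in resistant cells by edgeR, where 5 had an unadjusted p under 0.05, for none by DESeq2 and for 1 by limma-voom. The shares over all genes were 30.4% lower and 28.3% higher in parental cells, and 12.5% and 9.01% in resistant cells. SLC38A7, a lysosomal glutamine and asparagine carrier, was 15.1 and 11.5 CPM in parental cells and 23.5 and 23.6 CPM in resistant cells. It fell 1.31-fold with oxamate in parental cells (adjusted p = 1.27e-07), and the line difference was 1.56-fold after vehicle and 2.05-fold after oxamate (adjusted p = 5.6e-11 and 1.79e-13). CTNS, the cystine exporter of the lysosome, and SLC38A9, an arginine sensor of the mTORC1 pathway, were 1.64-fold and 1.66-fold higher in the resistant line after oxamate, and MFSD12 was lower (log2 -0.66, adjusted p = 3.42e-10).

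Regulators of the amino acid response moved in both directions. Of 14, oxamate raised 5 and lowered 8 in parental cells, and raised 1 and lowered 5 in resistant cells, beside shares of 28.3% and 30.4%, and 9.01% and 12.5%, over all genes. ATF4 itself fell 1.21-fold in parental cells (log2 -0.28, adjusted p = 7.4e-07), was not called in resistant cells (log2 -0.083, adjusted p = 0.0529) and was 1.32-fold and 1.51-fold higher in the resistant line after vehicle and oxamate. ATF4 is controlled largely at translation, which mRNA does not show. TRIB3, a pseudokinase that ATF4 induces, was 29.3 and 20.6 CPM in parental and 57.8 and 38.6 CPM in resistant cells, higher in vehicle-treated resistant cells and lower after oxamate in both lines, as SLC7A5 was. CHAC1, which degrades glutathione, was 2.56 and 1.12 CPM in parental and 11.7 and 13.4 CPM in resistant cells, a gap of 4.60-fold after vehicle and 11.9-fold after oxamate (adjusted p = 2.23e-14 and 3.7e-16). The stress genes DDIT3, which encodes CHOP, and PPP1R15A, which encodes GADD34, were lower in resistant cells after vehicle (2.03-fold and 1.61-fold), and ATF5, a relative of ATF4, was higher (log2 0.77, adjusted p = 1.01e-11). CEBPG, a dimer partner of ATF4, fell with oxamate in parental cells with the smallest p of the list (log2 -0.44, adjusted p = 1.97e-09). DDIT4, an inhibitor of mTORC1 signaling, rose with oxamate in parental cells and fell in resistant cells (log2 0.20 and -0.49, difference -0.69, adjusted p = 9.68e-09).

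Among 13 enzymes of the amino acid response, oxamate lowered 9 and raised 3 in parental cells and lowered 10 and raised 1 in resistant cells, where the shares over all genes were 30.4% and 28.3%, and 12.5% and 9.01%. ASNS, asparagine synthetase, was 72.1 and 48.2 CPM in parental and 81.0 and 51.1 CPM in resistant cells, falls of 0.58 and 0.66 on the log2 scale (adjusted p = 1.76e-10 and 4.79e-10). PSAT1, the aminotransferase of serine synthesis, was 83.6 and 60.1 CPM in parental and 130.1 and 92.6 CPM in resistant cells, and it was 1.56-fold higher in the resistant line after vehicle and 1.54-fold higher after oxamate (adjusted p = 8.83e-12 and 9.68e-12). GPT2, the mitochondrial alanine aminotransferase, had the response that differed most by p between the lines (difference -0.50, adjusted p = 6.14e-08). Enzymes that use the amino acids these carriers bring in were tested for 16 of 18 genes. Oxamate raised 6 and lowered 8 of them in parental cells and lowered 5 in resistant cells, and 11 and 12 of the 16 were lower in the resistant line after vehicle and after oxamate (9 and 8 under scaling by totals alone). Over all genes 28.3% were called higher and 30.4% lower in parental cells, 12.5% lower in resistant cells, and 37.3% and 39.7% lower in the resistant line. ARG2, the mitochondrial arginase, and GLDC, of the glycine cleavage system, were lower there after oxamate (log2 -0.96 and -0.89), as was GLUD1, glutamate dehydrogenase, after vehicle (log2 -0.45, adjusted p = 5.64e-10), while BCAT1, the cytosolic branched-chain aminotransferase, was higher after oxamate (log2 0.74, adjusted p = 1.64e-06). BCKDHB, of the branched-chain ketoacid dehydrogenase, rose with oxamate in parental cells (log2 0.57, adjusted p = 5.73e-09) and GOT1, the cytosolic aspartate aminotransferase, fell in resistant cells (log2 -0.28, adjusted p = 3.55e-05).

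**Figure D4:**
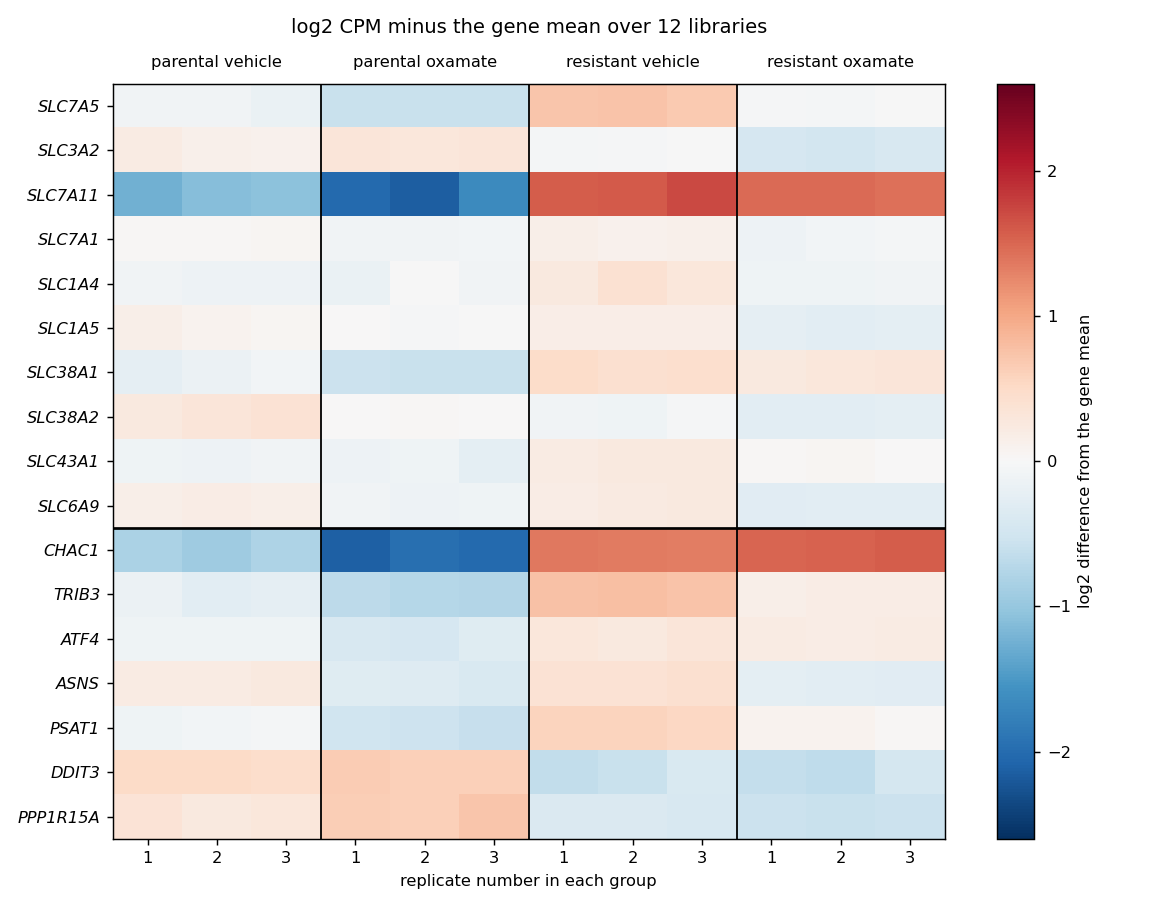
Log2 CPM minus the gene's mean over the 12 libraries (color, blue lower and red higher), with rows for the 10 transporters above the line and 7 genes of the amino acid response below it, and columns for libraries by group and replicate number. SLC7A11 and CHAC1 separate the parental (blue) from the resistant libraries (red), SLC7A5, TRIB3 and PSAT1 are reddest in vehicle-treated resistant cells, and DDIT3 and PPP1R15A are red in parental and blue in resistant libraries.

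The genes with the most similar pattern were sought, over 9615 genes averaging 8 CPM or more, by Pearson's r of log2 CPM over the 12 libraries, a description in which the libraries share 4 groups and the group differences set most of the value. For SLC7A5 these were PSAT1 (r = 0.983), FBXO27 (0.983) and CBS (0.981), an enzyme of the transsulfuration route to cysteine. RASA1 (r = 0.999), EHBP1 (0.998) and SERPINB9 (0.998) came closest to SLC7A11. For SLC1A4 they were PCK2 (r = 0.915), VSIG10 (0.914) and MYO19 (0.914), and for SLC38A2 they were LARS (r = 0.994), TOP1 (0.988) and DDX10 (0.984).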

How the data were processed

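The series holds polyA RNA-seq of MIAPaCa2 cells in 12 libraries, 3 for each of 4 groups taken from GEO's labels. The deposited values are expected counts per gene symbol, which the authors made by alignment and quantification. Per the submitters' processing notes these used Bowtie2 2.1.0, RSEM 1.2.15 and hg38, and the paper's methods also describe another aligner and counter. Of the deposited values 11.6% were not whole, as RSEM gives. The library kit does not mark strand and strand-aware counting is not stated, so antisense and overlapping genes cannot be told apart. Reads shared with near copies were split by the authors' estimate.

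Counts were rounded to whole numbers, filtered with filterByExpr, scaled by TMM and fitted with edgeR 4.0.16 (R 4.3.3) over all 12 libraries by group. Alternatives used DESeq2 1.42.0, limma-voom (limma 3.58.1), other scalings and filters, a replicate block, the compared groups alone and leaving out each library. Intervals are 95% and cover the spread between these libraries. Ratios and sums were tested by exact two-sided permutation. The tests were checked on simulated data. The transporters and gene lists were chosen with earlier results of these data known, so their counts are descriptions and no list was tested as a set. Of each other list, the text names the gene with the smallest p in a comparison and genes over 1.5-fold at an adjusted p under 0.05, at most 3 in each direction. SLC7A6 falls outside this and was named for its part of the light chains after its values were seen. Gene positions are from GENCODE 29 on GRCh38, promoter windows from RefSeq.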

Additional observations from a re-analysis of the deposited data

Results flagged for a closer look

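For 8 of the 10 transporters the response to oxamate differed between the lines by the test of the difference itself (edgeR, adjusted p under 0.05). Over all genes that difference was called above 0 for 22.7% and below 0 for 21.4%. Values are the log2 response of resistant cells minus that of parental cells. The difference was -0.288 for SLC7A5, -0.571 for SLC3A2, -0.452 for SLC1A4, -0.312 for SLC1A5, -0.234 for SLC6A9 and -0.151 for SLC43A1. It was 0.567 for SLC7A11 and 0.261 for SLC38A1. SLC3A2 is the gene whose called responses ran in opposite directions, 0.16 in parental and -0.41 in resistant cells. SLC7A5, SLC1A5, SLC6A9 and SLC38A1 fell by call in both lines and differed in size. SLC1A4 and SLC43A1 were called in resistant cells alone and SLC7A11 in parental cells alone. Under scaling by library totals alone the calls of a difference for SLC6A9 and SLC43A1 were lost. The parental fall of SLC43A1 was then called (-0.13, adjusted p = 0.00423). Dixon's outlier test was not run on these groups of 3 libraries.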

How the results depend on the processing

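Of 900 refits of 50 gene results, 853 kept direction and side of the threshold, 13 lost the call, 16 gained one and 18 changed sign. A refit that changed sign was counted only as such, also where it lost or gained a call. Of the sign changes, those after oxamate between the lines were SLC7A1 (-0.0015 with RLE factors, -0.0011 with no filter, -0.0013 with DESeq2, and -0.0013, -0.0042 and -0.0094 without replicate 2 of oxamate-treated parental and replicates 2 and 3 of oxamate-treated resistant cells) and SLC1A4 (0.071 with upper-quartile factors, 0.31 with library totals, 0.0080 with a mean count of at least 25, 0.014 with the compared groups alone and 0.019 without replicate 2 of oxamate-treated parental cells). In these refits SLC1A4 was called with library totals alone (adjusted p = 0.000135). SLC7A1 kept its sign but was called with upper-quartile factors (0.090) and library totals (0.33). Leaving out 1 library gave from -0.0094 to 0.028 for SLC7A1 and from -0.051 to 0.019 for SLC1A4. SLC1A4 in parental cells turned to -0.046 with library totals and -0.0056 without replicate 2 of oxamate-treated cells, with up to 0.064 when another library was left out. Library totals also turned SLC3A2 after vehicle to 0.039, SLC1A5, SLC38A2 and SLC6A9 after oxamate to 0.088, 0.036 and 0.16, and the difference of responses of SLC7A1 to 0.018. Of these, SLC1A5 and SLC6A9 after oxamate were called in the new direction (adjusted p = 0.00339 and 0.00211). Library totals moved the log2 difference of the summed CPM to -0.309 in parental and -0.318 in resistant cells. Between the lines it went to 0.212 after vehicle and 0.203 after oxamate, and for the difference of responses to -0.00939. By the study's threshold the transporters passing numbered 1 in parental cells, 1 in resistant cells, 3 between the lines after vehicle, 3 after oxamate and 0 for the difference of responses. The cause of these changes was not tested, beyond the fewer genes a fold minimum admits. Correlations of deviations did not settle whether replicate numbers pair the libraries. Same-number values ran from -0.10 to 0.37 and passed 0.1 for 6 of 18 pairs. Those with different numbers ran from -0.299 to 0.185 and passed it for 6 of 36. The highest value joined replicate 3 of oxamate-treated parental and replicate 3 of vehicle-treated resistant cells. With the replicate block SLC7A11 in resistant cells (-0.18, adjusted p = 0.0473) and the difference of responses of SLC38A2 (0.098, adjusted p = 0.0299) gained a call, and no other call changed. Depth limited SLC7A11 most, with as few as 53 expected counts in a parental library.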
